A study of Bos taurus with 40 samples.

Results

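Of 32671 named genes counted in bovine endometrium, 42 (0.129%) peaked on day 13 in the uterine horn opposite the corpus luteum. The members were chosen by contralateral read counts. CPM values (a gene's reads scaled to a common library total) were averaged over the 5 contralateral libraries of each day. A gene was kept where the day 13 mean was at least 3 CPM and the means of days 5, 7 and 16 were each below 0.5 of it. TDGF1, CYP26A1, DGAT2 and LPL were set aside by the rule. The contralateral day differences of the members are therefore a property of the choice and carry no test. Tests were run in the ipsilateral libraries, which the choice did not use.

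The endometrium is the inner lining of the uterus. The ipsilateral horn is on the side of the ovary that bears the corpus luteum, the gland that secretes progesterone after ovulation, and the contralateral horn is on the other side. The 40 RNA-seq libraries come from both horns of 20 heifers at 4 stages, days 5, 7, 13 and 16, with 5 libraries for each horn and day. Every group is endometrium of one horn on one day, and the labels name no treatment, strain or age. The labels count days of pregnancy while the design text counts days after estrus, and neither says whether an embryo was found. Each heifer was sampled on 1 day, so differences between days are differences between animals.

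The libraries held 27.2 to 64.4 M counted reads, and the second deepest held 41.4 M. Markers of luminal and glandular epithelium were present throughout, with all 18 of 18 in the table and none at 0 in all libraries. Their summed level in the ipsilateral horn was 1064 to 1759 CPM on day 5 and 1692 to 2234 CPM on day 7. It was 1800 to 2520 CPM on day 13 and 1690 to 2393 CPM on day 16. The share of reads on the mitochondrial entry was 0.448 to 0.526% in the 5 ipsilateral libraries of day 13 and at most 0.399% in the 15 of the other days. Its part in the results of day 13 was not tested. Of the 19 markers of trophoblast and conceptus on the list, 16 are in the table, and PAG11, CSH2 and PRP1 had no read in any library. Other markers on that list were more abundant. KRT18, which is also on the epithelial list, reached 179 CPM, SSUH2 83.0 CPM, TFAP2C 25.1 CPM and ELF5 16.6 CPM. Of the 2 interferon tau entries, which encode the pregnancy signal of ruminants, IFN-TAU reached at most 2 reads and IFNT2 at most 85 (2.53 CPM). The IFNT2 maximum was in ipsilateral library 2-068 of day 16. PAG1, a pregnancy-associated glycoprotein, reached at most 314 reads (4.87 CPM), in the deepest library, ipsilateral 3-175 of day 5. These are bulk samples, in which fewer cells of a type and less RNA per cell cannot be told apart.

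The number in a library's name is the tag of the heifer. Yet the tags did not tie the horns together at several members that differ sharply between animals, as the last results show. At LOC782402 the highest day 13 library was 4-1314 in both horns. Tags were compared within days only, because no tag is shared between days, so an exchange of libraries between days could not be seen. The ipsilateral libraries come from the same heifers as the contralateral ones that chose the members, so they repeat the measurement in other tissue and not in other animals. The number of all genes higher on day 13 than on day 16 was 50 with every library, 110 without day 16 library 5-137, and 7 to 12 without any one of the day 16 libraries 3-155, 7-107 and 8-245 or the day 13 libraries 4-1314 and 5-140.

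In the days after ovulation, progesterone from the corpus luteum changes what the uterine epithelium makes and secretes. Glands and surface epithelium supply the fluid in the lumen with proteins, amino acids, ions and lipids, on which an elongating conceptus depends before it attaches. The endometrium's own program of secretion runs in cyclic as well as in pregnant animals.

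On day 13 the contralateral means of the 42 genes ranged from 3.1 CPM (NEGR1) to 133 CPM (SLC39A2), with a median of 7.42 CPM. The mean of day 13 was 2.01 to 4.79 times the highest of the other 3 days, with a median of 2.55. That highest other day was day 16 for 28 genes, day 7 for 9 and day 5 for 5. Close to the limit of the ratio, DDC-2 was inside at 0.498 and HIST1H1D at 0.495, while DDC was just outside at 0.501 and C18H19orf33 at 0.502. Near the limit of 3 CPM, NEGR1 at 3.1 and VPREB1 at 3.43 were inside, and LOC100294726 at 2.86 and WC1-12 at 2.81 were outside.

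Of the 42 gene names, 37 match a single entry of the RefSeq gene table for the later assembly ARS-UCD2.0. Of these names 32 match protein-coding genes, 4 long non-coding RNAs and 1 a pseudogene. STYK1-2 and DDC-2 were matched without their suffix, so STYK1 and STYK1-2 share an entry. LYZ1 matches several lysozyme entries, and 4 names match none. Within that assembly, COL22A1 and FAM135B are neighbours with 0 protein-coding genes between them. Apart from the shared entry of STYK1 and STYK1-2, no other pair of members was closer than HIST1H1D and HIST1H1C, with 16 protein-coding genes between them.

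**Figure D1:**
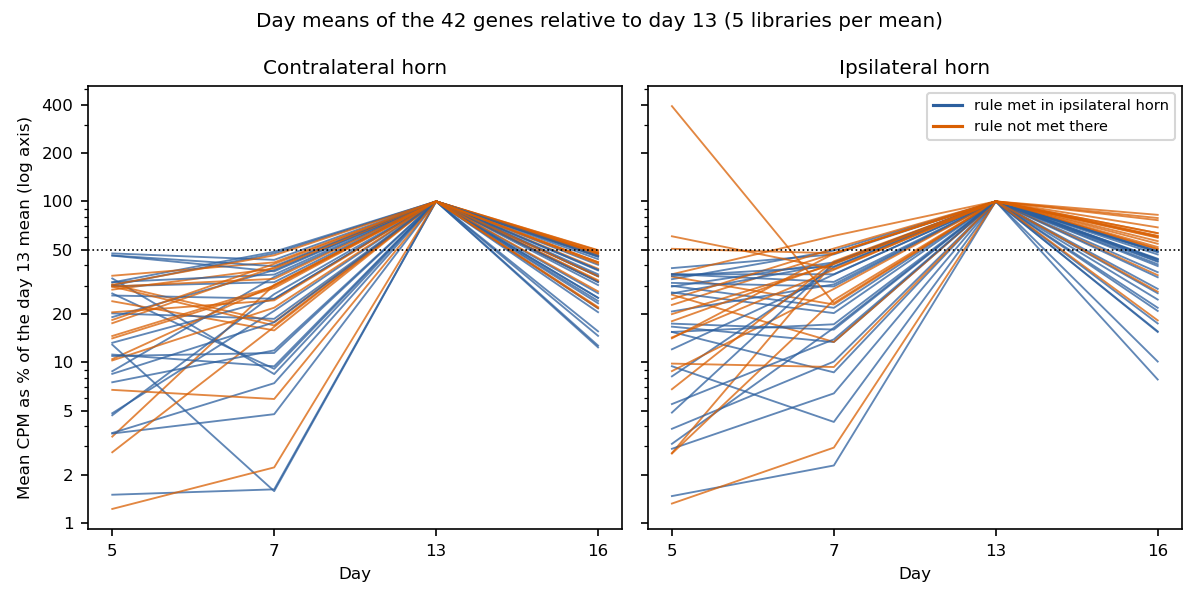
Mean CPM of each of the 42 genes on days 5, 7, 13 and 16 as a percentage of its day 13 mean (log axis), 1 line per gene, for the contralateral horn that chose them (left) and the ipsilateral horn (right). All lines off day 13 lie under the dotted 50% line on the left by construction; on the right, 15 genes are at or above it on day 16, and NMB is far above 100% on day 5 through 1 library.

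In the ipsilateral horn 41 of the 42 genes had their highest mean on day 13, the exception being NMB. Of all genes with an ipsilateral day 13 mean of at least 3 CPM, 22.1% were highest on that day, against 38 of the 39 members at that level. The full rule was met there by 24 of 42. Of those 14253 genes 0.274% met it. Of the 18 genes that missed the rule, 15 had a day 16 mean of at least 0.5 of day 13, and for 10 this was the sole reason. Only 3 missed it through day 5 and 2 through day 7, and 3 had a day 13 mean under 3 CPM.

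One library weighed on the day 16 level. Ipsilateral day 16 library 3-155 was the highest of its group for 21 of the 42 genes, a count not made over all genes. With all 5 libraries 27 genes were under 0.5 of their day 13 mean on day 16; without 3-155 the number was 34, and without 5-137 or without 7-107, the lowest libraries for 12 and 13 genes, it was 23. Separation of single libraries was rarer than separation of means. All 5 ipsilateral day 13 libraries lay above all 15 of the other days for 5 genes (COL22A1, LOC522479, RAD21L1, HIST1H1C and LOC526787), against 0.302% of all genes at the same day 13 level.

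Differences between days were tested in the 20 ipsilateral libraries with edgeR's quasi-likelihood test and Benjamini-Hochberg adjustment over 19733 genes, and log2 fold changes below come from that fit. From day 7 to day 13, 26 of the 42 genes rose and none fell, where 14.6% of all genes tested rose. The differences of the 42 were all above 0 and had a median of 1.66 on the log2 scale, against 0.03 over all genes. From day 5 to day 13, 35 rose and none fell, where 21.1% of all genes rose, with a median of 2.49. NMB alone had a difference below 0 from day 5. Between these 2 days cell type markers differed too: 8 of 18 epithelial markers rose and 2 fell (median 0.43), 7 of 12 stromal fibroblast markers fell (median -0.82) and 6 of 10 smooth muscle markers fell (median -1.40), where 3892 of 19733 genes fell. Their part in the result was not tested. The comparisons share the day 13 libraries, so they are not independent of each other. The members were chosen in the other horn of the same heifers. The shares over all genes are therefore not a background free of that choice, here or in the other ipsilateral comparisons.

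Between day 13 and day 16 the fit called 2 of the members, COL22A1 and LOC522479, both higher on day 13. Of all genes it called 50 (0.253%) higher on day 13 and 38 lower. All 42 differences were above 0, with a median of 1.21, and 28 had an unadjusted p under 0.05. Of all genes 50.6% were above 0, the median was 0.00, and 11.2% had an unadjusted p under 0.05. The call is sensitive to the tool. DESeq2 called 13 of the 42 higher on day 13, where it called 1.00% of all genes higher. The 13 were ALK, COL22A1, FAM135B, HIST1H1C, NLRP12, SCN3A, VPREB1 and 6 LOC entries. The edgeR count was 0 without day 13 library 4-1314 or without any one of the day 16 libraries 3-155, 7-107 and 8-245, and 1 without 5-137 or any one of 2-068, 5-140, 6-203 and 8-275.

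Between day 7 and day 16, 13 genes were higher on day 16 (15.5% of all genes tested) and 1, FAM135B, was lower (15.9% of all). The 13 all belong to the 26 that had risen by day 13: BCL2L14, DDC-2, GDA, LY6G6C, LYZ1, MATK, PSPH, RAD21L1, SLC39A2 and the entries LOC100848209, LOC516849, LOC522479 and LOC526787. Another 13 rose to day 13 and did not pass between days 7 and 16, and 15 passed in neither. The count of genes higher on day 16 than on day 7 does not show that the others were back at the day 7 level.

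**Figure D2:**
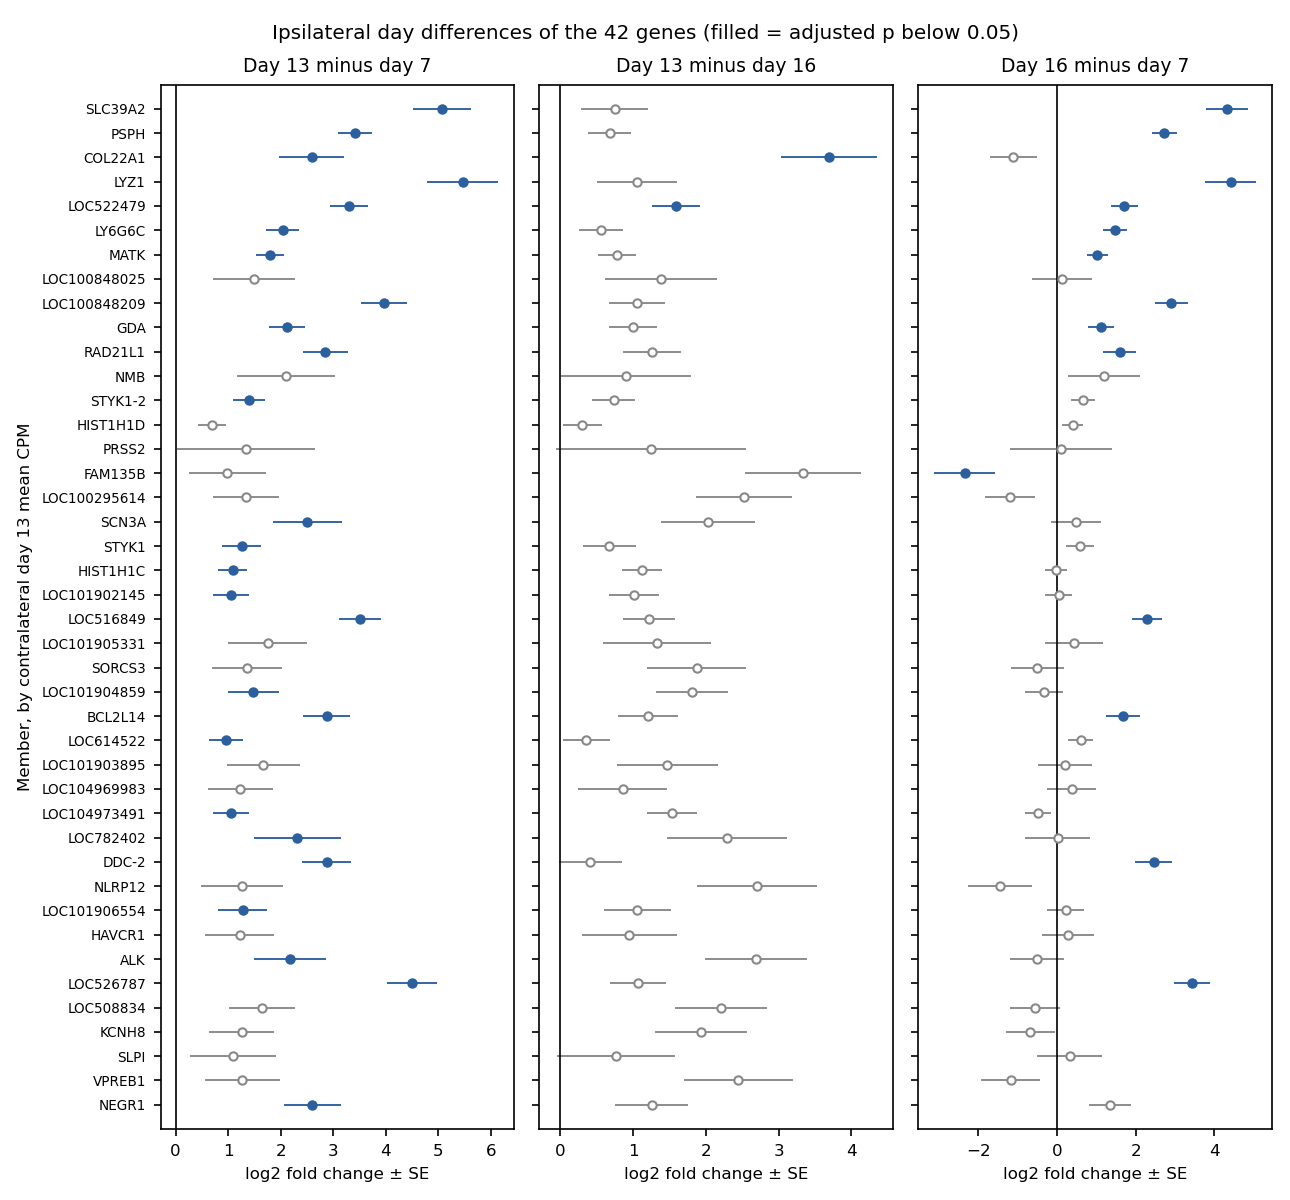
Ipsilateral log2 fold change with its standard error for each of the 42 genes, ordered by contralateral day 13 mean, for day 13 minus day 7 (left), day 13 minus day 16 (middle) and day 16 minus day 7 (right). Filled points passed an adjusted p of 0.05: 26 on the left, 2 in the middle and 14 on the right, of which FAM135B alone is below 0.

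Members of transport and metabolism ranged on contralateral day 13 from 133 CPM (SLC39A2) to 3.95 CPM (DDC-2). SLC39A2, a zinc importer of the plasma membrane, was the most abundant member in the contralateral horn. Its ipsilateral libraries read 1.45, 2.74, 5.52, 2.25 and 2.50 CPM on day 7 and 108, 171, 20.6, 104 and 86.6 CPM on day 13. On day 16 they read 57.5, 112, 19.5, 37.7 and 73.1 CPM. The groups of days 7 and 13 did not overlap, and those of days 13 and 16 did, with 1 low library on each day. The mean was 33.9 times higher on day 13 than on day 7 (log2 fold change 5.07 ± 0.55 SE, adjusted p = 3.4e-06, edgeR). Day 16 was still above day 7 by 4.33 ± 0.54 (adjusted p = 8.5e-06), and the difference between days 13 and 16 was 0.75 ± 0.46 (adjusted p = 0.59).

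PSPH encodes phosphoserine phosphatase, the last step of serine synthesis. It stood between 5.62 and 9.83 CPM in the ipsilateral libraries of day 7 and at 100.06, 69.5, 42.9, 82.3 and 87.7 CPM in those of day 13. It had the lowest adjusted p of the set between these days (3.41 ± 0.32, adjusted p = 1.0e-06). On day 16 library 3-155 was at 97.3 CPM, inside the day 13 range, while the other 4 were between 28.2 and 48.4 CPM. The difference of day 13 over day 16 was 0.68 ± 0.29 (adjusted p = 0.39), and without 3-155 it was 1.09 (adjusted p = 0.077).

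GDA, guanine deaminase of purine breakdown, was at 12.3 CPM on average on day 7 and at 54.0 ± 13.8 CPM (SD, n = 5) on day 13 in the ipsilateral horn. It rose by 2.12 ± 0.34 (adjusted p = 1.3e-04) and remained higher on day 16 than on day 7 by 1.12 ± 0.33 (adjusted p = 0.015), a call lost without day 16 library 3-155 (adjusted p = 0.064). GDA met every part of the rule in the ipsilateral horn except day 16, where its mean was just over 0.5 of day 13. DDC-2, a second entry of the gene for aromatic amino acid decarboxylase, which makes dopamine and serotonin, was low but regular. Its ipsilateral means were 0.758, 0.386, 2.88 and 2.20 CPM on days 5, 7, 13 and 16, and it rose from day 7 by 2.87 ± 0.47 (adjusted p = 1.7e-04). The sources do not say how reads were divided between DDC and DDC-2, so the values of both are uncertain. LOC614522, TLCD4 in RefSeq, rose by 0.96 ± 0.32 (adjusted p = 0.033), a call that ended without any one of 6 libraries (adjusted p up to 0.125).

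Secreted and surface proteins also spanned high and low levels. LYZ1 encodes a lysozyme, an enzyme that cuts bacterial cell walls. In the ipsilateral horn it read 5.31, 2.94, 0.749, 1.38 and 0.507 CPM on day 7 and 85.6, 140.01, 89.9, 132 and 29.7 CPM on day 13. No day 7 library came near the day 13 range, and the rise of 5.46 ± 0.67 (adjusted p = 1.0e-05) was the steepest of the 42 between these days. On day 16 its libraries spread from 10.4 CPM in 5-137 to 71.1 CPM in 3-155, from below the day 13 range into it. Lysozyme genes of cattle are many and alike, so the reads of LYZ1 may include those of its copies.

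LY6G6C, a membrane-anchored protein of the LY6 family, differed from LYZ1 in having already climbed by day 7. Its ipsilateral means were 1.83, 16.5, 67.5 and 46.6 CPM on days 5, 7, 13 and 16. It rose by 5.22 ± 0.37 from day 5 (adjusted p = 3.7e-08) and by 2.03 ± 0.31 from day 7 (adjusted p = 8.6e-05) to day 13. Its 5 libraries of day 13 lay between 44.0 and 80.8 CPM and those of day 16 between 25.1 and 76.4 CPM, so the groups overlapped. HAVCR1, a receptor for phosphatidylserine on dying cells, had at most 0.193 CPM in any ipsilateral library of day 5 and 1.18 to 6.06 CPM on day 13. It rose from day 5 (4.95 ± 0.82, adjusted p = 1.1e-04), while the step from day 7 was 1.22 ± 0.66 (adjusted p = 0.18).

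SLPI, an inhibitor of serine proteases in mucosal fluids, was the one member that also stands in a list of pathway or marker genes, that of mucosal defence. In the ipsilateral horn it was at 3.13, 2.97, 3.00 and 2.67 CPM in 4 libraries of day 13 and at 0.0733 CPM in the fifth, 5-167. The contralateral libraries likewise held 4 values from 3.19 to 5.09 CPM and 1 of 0.257 CPM, in 5-140. The rise from day 5 passed (2.76 ± 0.89, adjusted p = 0.018) and the step from day 7 did not (1.09 ± 0.82, adjusted p = 0.35). Of the 20 genes on that list 10 were tested, and from day 7 to day 13 1 rose and 2 fell, where 14.6% of all genes rose and 14.0% fell. PIGR, which carries antibodies across epithelium, rose by 3.30 ± 0.60 (adjusted p = 4.2e-04), while the iron-binding LTF fell by 3.63 ± 0.84 (adjusted p = 0.0030) and the protease inhibitor WFDC2 by 1.32 ± 0.25 (adjusted p = 5.1e-04). The 10 had a median of -0.14. The summed level of the 19 list genes in the table was 589 to 1227 CPM on day 7 and 72.5 to 238 CPM on day 13. That sum had means of 723 and 142 CPM and followed its most abundant genes. LTF had means of 536 and 43.7 CPM on these days and WFDC2 173 and 70.3 CPM, while PIGR had 1.47 and 14.7 CPM.

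PRSS2, a trypsinogen, lay in 2 separate bands over the 40 libraries, at 13.8 to 36.1 CPM or at 0 to 4.37 CPM, and both bands were filled on every day. Its contralateral day 13 libraries read 26.9, 0.257, 36.1, 30.05 and 24.6 CPM, and its ipsilateral ones read 28.2, 29.2, 0.256, 28.4 and 24.3 CPM. On day 16 the ipsilateral libraries read 0, 0.0645, 0.524, 25.2 and 22.1 CPM. The upper band held 4 of 5 libraries on day 13 and 2 of 5 on day 16, in each horn. No ipsilateral day difference passed (day 13 minus day 7, 1.33 ± 1.31, adjusted p = 0.49).

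NMB encodes neuromedin B, a small peptide that contracts smooth muscle. It peaked on day 13 in the contralateral horn with 33.3 ± 10.5 CPM (SD, n = 5) and had 27.9 ± 8.43 CPM on day 13 in the ipsilateral horn. There, a single day 5 library, 8-1350, held 496 CPM, where the other 4 held 8.27 to 15.6 CPM. Through it the difference of day 13 from day 5 was -2.09 ± 0.92 (adjusted p = 0.076), and without it the sign turned and the gene rose by 1.20 (adjusted p = 0.017). Without any one of the other 4 libraries of day 5, NMB was called lower on day 13 (-2.38 to -2.40, adjusted p = 0.038 to 0.046). Library 8-1350 was also the highest of its group in the summed level of the 10 smooth muscle markers, all in the table and none at 0, with 5429 CPM against at most 1068 CPM in the other 4. Their part in the result was not tested.

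**Figure D3:**
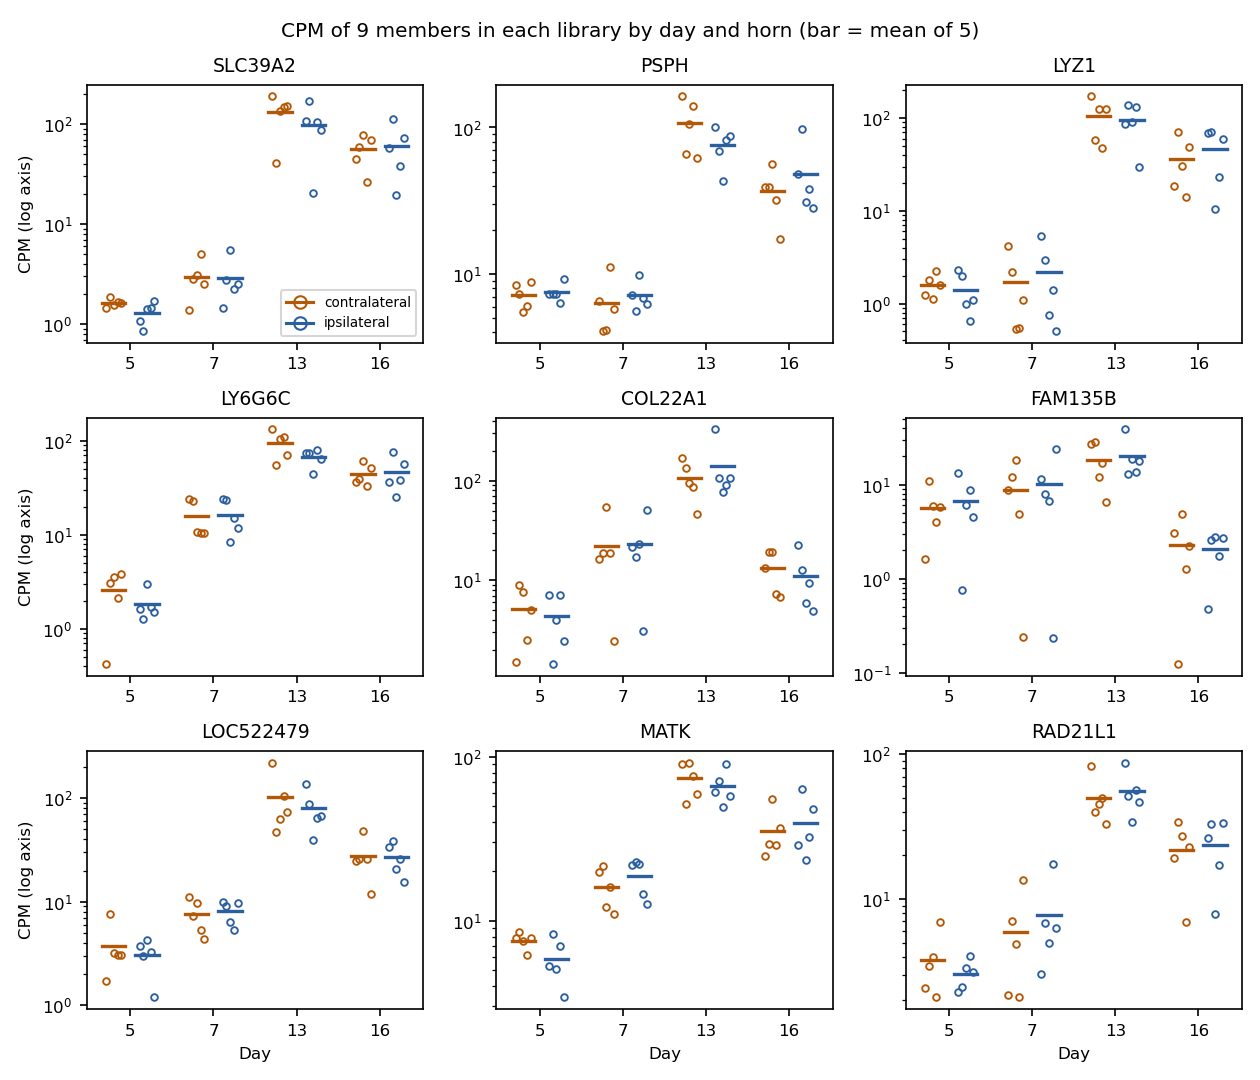
CPM (log axis) of 9 members in every library by day, contralateral and ipsilateral side by side, with 1 circle per library and a bar at the mean of 5. SLC39A2, PSPH, LYZ1 and LY6G6C stay well above their day 7 level on day 16, while the day 16 means of COL22A1 and FAM135B are under those of day 7.

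COL22A1 and its neighbour FAM135B had the 2 largest differences of day 13 over day 16. COL22A1 encodes a collagen of tissue junctions. In the ipsilateral horn it read 21.4, 17.2, 22.9, 3.08 and 51.2 CPM on day 7, 328, 107, 77.1, 89.9 and 105 CPM on day 13, and 22.5, 12.7, 5.86, 9.36 and 4.88 CPM on day 16. Every day 13 library was above every library of the other 3 days. The mean fell by a factor of 12.8 from day 13 to day 16 (log2 difference 3.70 ± 0.66 of day 13 over day 16, adjusted p = 0.021), and it had risen from day 7 by 2.59 ± 0.62 (adjusted p = 0.0040). The day 13 over day 16 call was lost without day 13 library 4-1314, its highest, or without day 16 library 3-155, 7-107 or 8-245, with adjusted p up to 0.063, and with DESeq2 its adjusted p was 9.3e-06.

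FAM135B, whose product is little characterised, was at a lower level. Its ipsilateral libraries held 12.8 to 38.6 CPM on day 13 and 0.476 to 2.78 CPM on day 16, with no overlap. The log2 difference was 3.34 ± 0.79, which just missed in edgeR (adjusted p = 0.078) and passed in DESeq2 (adjusted p = 0.0026). From day 7 it differed by only 0.99 ± 0.72 (adjusted p = 0.33), and on day 7 its libraries spread from 0.231 to 23.9 CPM. It was the one member lower on day 16 than on day 7 (-2.35 ± 0.77, adjusted p = 0.025), a call lost without day 7 library 6-338 or day 16 library 2-068 or 7-107 (adjusted p up to 0.096). In both genes ipsilateral library 4-1314 was the highest of day 13 and library 6-338 the highest of day 7, and 5-117 was the lowest of day 7. Whether reads of one transcript reach both entries was not tested.

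Among protein kinases, MATK, a kinase that restrains SRC-family kinases, was high in every library of day 13. Its ipsilateral means climbed from 5.82 ± 1.88 CPM on day 5 to 18.9 CPM on day 7 and 66.0 ± 15.7 CPM on day 13, with 39.2 CPM on day 16 (SD, n = 5). The 5 day 13 libraries read 61.2, 70.8, 49.6, 90.5 and 57.8 CPM, all above the highest of day 7, 22.97 CPM. MATK rose by 1.80 ± 0.27 from day 7 (adjusted p = 6.0e-05) and by 3.51 ± 0.29 from day 5 (adjusted p = 1.2e-07). On day 16 only library 3-155, at 63.4 CPM, lay within the day 13 range.

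STYK1, an orphan receptor-like kinase, has 2 entries in the table, and both are members. STYK1-2 had 25.8 ± 7.74 CPM and STYK1 7.07 ± 2.41 CPM on ipsilateral day 13 (SD, n = 5). They rose from day 7 by 1.39 ± 0.30 (adjusted p = 0.0018) and 1.26 ± 0.37 (adjusted p = 0.014), the second call being lost without day 13 library 6-203 (adjusted p = 0.054). Library 6-203 was the highest of day 13 for both entries, at 39.3 and 10.96 CPM. They share a name, so they are not independent members. ALK, the receptor kinase best known from lymphoma, was much lower, at 3.94, 0.958, 2.93, 6.81 and 3.32 CPM on ipsilateral day 13. Its rise from day 7 (2.17 ± 0.68, adjusted p = 0.022) was lost without any one of 4 libraries, 6-203 among them (adjusted p up to 0.070). Against day 16 its difference was 2.69 ± 0.70 (adjusted p = 0.10 in edgeR and 0.0072 in DESeq2).

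The chromatin group brought together a cohesin subunit and linker histones. RAD21L1 is a cohesin subunit known from meiosis in germ cells. In endometrium it nevertheless reached 87.6, 51.8, 34.1, 56.8 and 47.2 CPM on ipsilateral day 13, and its day 7 libraries held 3.05 to 17.4 CPM. All day 13 libraries were above all others, the nearest being a day 16 library at 33.7 CPM. It rose by 2.85 ± 0.43 from day 7 (adjusted p = 6.7e-05) and stayed higher on day 16 than on day 7 by 1.59 ± 0.41 (adjusted p = 0.0059).

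HIST1H1C (H1-2 in RefSeq) and HIST1H1D (H1-3) encode linker histones, which bind DNA between nucleosomes. HIST1H1C stood at 8.73, 11.8, 5.61, 6.56 and 7.10 CPM on ipsilateral day 13, all above the 15 libraries of the other days, and rose by 1.09 ± 0.28 from day 7 (adjusted p = 0.0057). The difference of day 16 from day 7 was -0.03 ± 0.28. HIST1H1D was more abundant but flatter, with means of 13.0, 21.3 and 17.6 CPM on days 7, 13 and 16, and its step from day 7 did not pass (0.70 ± 0.27, adjusted p = 0.059). Most histone mRNAs lack a poly(A) tail and histone genes resemble one another, so counts from poly(A)-selected libraries are uncertain. Of the 22 genes of the proliferation list, 16 were lower on day 13 than on day 7, as were 14.0% of all genes, and the list's median was -1.27.

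Genes of cell death and immune sensing were low. BCL2L14, a member of the BCL2 family, was the steadiest of them, with 5.75, 4.18, 4.29, 6.74 and 3.05 CPM on ipsilateral day 13 against 0.226 to 1.29 CPM on day 7. It rose by 2.88 ± 0.45 (adjusted p = 9.45e-05) and was still higher on day 16 than on day 7 (1.68 ± 0.44, adjusted p = 0.0062). NLRP12, a cytosolic sensor of myeloid cells, and VPREB1, part of the receptor of immature B cells, peaked through 1 or 2 libraries. NLRP12 held 11.9 CPM in ipsilateral library 6-203 and 0.916 to 2.21 CPM in the other 4 of day 13. VPREB1 held 5.39 and 6.68 CPM in libraries 5-167 and 6-203 and 0.221 to 0.671 CPM in the remaining 3. Neither passed from day 7 (adjusted p = 0.24 and 0.20). The B cell and plasma cell markers, of which 7 of 8 are in the table, had a summed level of 4.6 to 16.8 CPM on day 7 and 5.7 to 12.6 CPM on day 13. The 6 tested had a median difference of 0.33 between these days.

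Several members are best known from neurons. SCN3A, a voltage-gated sodium channel, read 4.05, 3.32, 32.9, 8.71 and 8.55 CPM on ipsilateral day 13 and 0.950 to 4.87 CPM on day 7. It rose by 2.50 ± 0.66 (adjusted p = 0.0073), and without its highest library the rise was 1.62 (adjusted p = 0.041). NEGR1, an adhesion protein of nerve cells, read 5.01, 2.17, 9.89, 2.75 and 1.21 CPM on day 13, all above the day 7 maximum of 1.11 CPM, and rose by 2.60 ± 0.54 (adjusted p = 0.0012). KCNH8, a potassium channel (1.25 ± 0.62, adjusted p = 0.14), SORCS3, a sorting receptor (1.37 ± 0.67, adjusted p = 0.14), and LOC101905331, TUNAR in RefSeq (1.75 ± 0.75, adjusted p = 0.090), did not pass from day 7. SORCS3 reached 14.5 CPM in ipsilateral library 8-275 and 5.37 CPM in 6-203, with 0.626 to 1.18 CPM in the other 3. All 10 nerve and Schwann cell markers are in the table, and their summed level was 261 to 334 CPM on day 7 and 95.2 to 187 CPM on day 13. Of the 7 tested, 1 rose and 1 fell, and their median difference was 0.02, against 0.03 over all genes. Their part in the results was not tested.

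Of the members 16 are named by a LOC number only, 4 of which have no match in the RefSeq table. LOC100848209, one of the 4, was at 77.1, 61.9, 35.02, 58.2 and 44.4 CPM on ipsilateral day 13 and 1.24 to 8.33 CPM on day 7 (3.96 ± 0.44, adjusted p = 3.7e-06). LOC522479, a protein-coding entry, read 139, 87.8, 39.8, 63.7 and 68.0 CPM on day 13, above all other libraries, the highest of which was 38.5 CPM on day 16. It rose by 3.30 ± 0.36 from day 7 (adjusted p = 3.15e-06), and its difference from day 16 was 1.59 ± 0.33 (adjusted p = 0.037). That last call ended in 9 of 10 fits that left out 1 library, 5-137 among them, with adjusted p up to 0.13.

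LOC526787 and LOC516849, both protein-coding, rose from low levels. LOC526787 had at most 0.282 CPM in any ipsilateral library of day 7 and 2.38 to 4.87 CPM on day 13 (4.50 ± 0.47, adjusted p = 2.3e-06). LOC516849 had 0.39 to 1.07 CPM on day 7 and 5.02 to 12.6 CPM on day 13 (3.51 ± 0.40, adjusted p = 4.75e-06). Both were still higher on day 16 than on day 7, by 3.43 ± 0.46 and 2.29 ± 0.38. LOC100295614 had ipsilateral means of 6.60, 16.9 and 2.95 CPM on days 7, 13 and 16. Its difference from day 16 was 2.53 ± 0.66 (adjusted p = 0.10 in edgeR and 0.0054 in DESeq2).

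Long non-coding RNAs among the members were LOC100848025, LOC101902145, LOC101906554 and LOC104969983. LOC100848025 was the most abundant of the 4, with 66.5, 252, 56.6, 15.3 and 59.5 CPM on ipsilateral day 13 and 4.90 to 65.6 CPM on day 7. Its step from day 7 did not pass (1.5 ± 0.78, adjusted p = 0.16). LOC101902145 and LOC101906554 rose by 1.05 ± 0.34 (adjusted p = 0.027) and 1.28 ± 0.46 (adjusted p = 0.046). Those calls were lost without any one of 5 and 7 libraries (adjusted p up to 0.080 and 0.125). LOC104969983 was even within day 13, at 2.84 to 4.98 CPM, but reached 5.11 CPM in 1 library of day 16 (from day 7, 1.23 ± 0.62, adjusted p = 0.15).

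The rest were low. LOC104973491 and LOC101904859 rose from day 7 by 1.05 ± 0.34 (adjusted p = 0.024) and 1.47 ± 0.49 (adjusted p = 0.028), calls lost without any one of 5 and 7 libraries (adjusted p up to 0.075 and 0.16). LOC508834 (1.64 ± 0.62, adjusted p = 0.054) and LOC101903895 (1.67 ± 0.70, adjusted p = 0.082) did not pass. LOC782402, a pseudogene in RefSeq, peaked through 1 library in each horn. Library 4-1314 held 17.2 CPM in the contralateral and 18.8 CPM in the ipsilateral horn, and the other 4 of day 13 held at most 0.933 and 1.11 CPM. Its call from day 7 (2.31 ± 0.83, adjusted p = 0.042) turned to -0.36 (adjusted p = 0.54) without 4-1314 and was also lost without any one of the 5 libraries of day 7.

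The libraries of day 13 did not contribute evenly to the values of the members. Contralateral library 4-1314 was the highest of its group for 19 of the 42 genes and the lowest for none. In the ipsilateral horn library 6-203 was the highest for 16, 4-1314 for 12, and 5-167 the lowest for 17. The same counts were not made over all genes. Without each gene's own highest library of day 13 the rule was met by 20 of the 42 in the contralateral horn and by 9 in the ipsilateral horn. Leaving out the highest library lowers the day 13 mean by construction, so these counts could only fall.

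The highest library of day 13 carried the same tag in both horns for 7 of the 42 genes, and all 7 were 4-1314. For 8 genes the highest was 5-167 in the contralateral and 6-203 in the ipsilateral horn. For another 4 it was 5-140 and then 5-167. SCN3A was highest under different tags, with 23.98 CPM in contralateral 5-140 and 32.9 CPM in ipsilateral 5-167. NLRP12 had 12.2 CPM in contralateral 5-167 and 11.9 CPM in ipsilateral 6-203, and SORCS3 had 17.8 CPM in contralateral 6-203 and 14.5 CPM in ipsilateral 8-275. VPREB1 was at 6.19 and 9.04 CPM in contralateral 5-140 and 5-167, and at 5.39 and 6.68 CPM in ipsilateral 5-167 and 6-203. The low libraries of PRSS2 and SLPI were contralateral 5-140 and ipsilateral 5-167. PRSS2 differed by tag on day 5 too. Its upper band held contralateral 3-175 and 4-184 (25.4 and 20.4 CPM) but ipsilateral 1-315 and 7-300 (18.8 and 13.8 CPM). On day 7 RAD21L1 was highest in contralateral 6-338 (13.6 CPM) and in ipsilateral 5-117 (17.4 CPM). LOC101905331 was highest on day 7 in 2-1337 of both horns. Agreement of tags was counted for day 13 only, over the members and not over all genes. Whether tags were exchanged was not tested. A library exchanged between days could not be seen in this way. No fit between days used the tag.

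**Figure D4:**
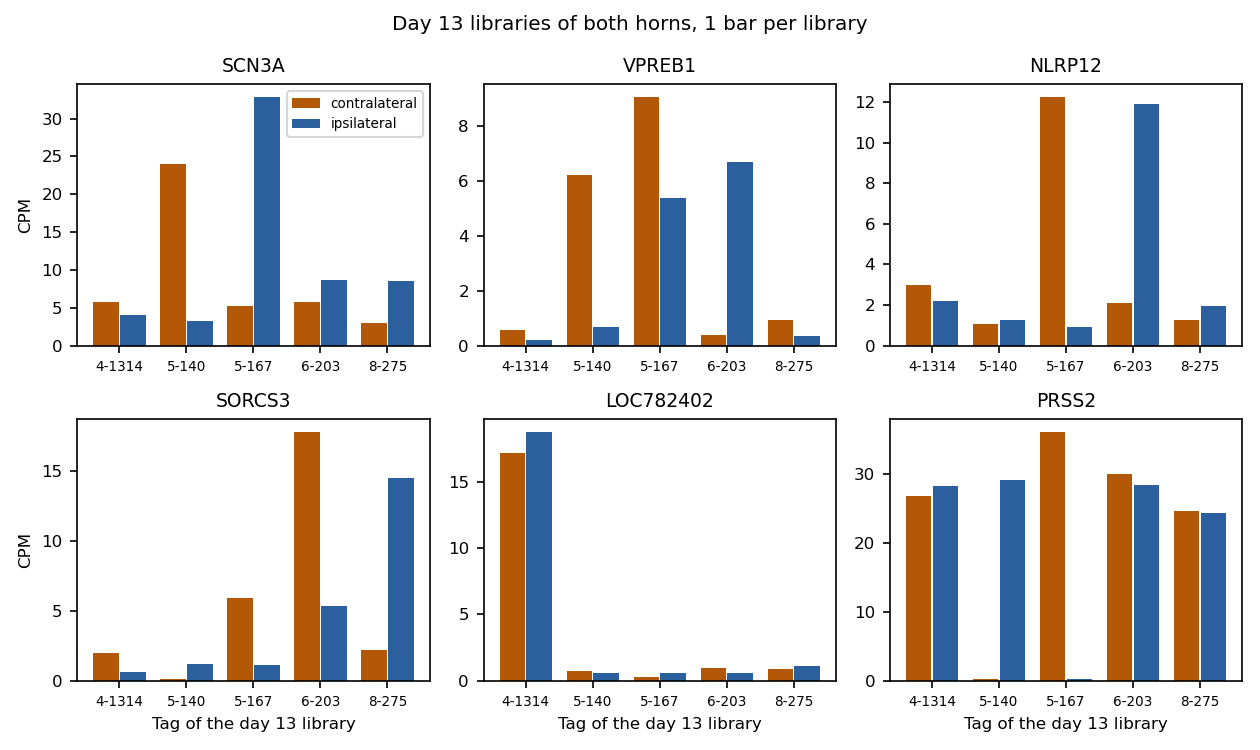
CPM of 6 members in the 10 libraries of day 13, by the tag in the library's name, with contralateral and ipsilateral bars side by side (linear axes from 0). LOC782402 is high in 4-1314 of both horns, while the high libraries of SCN3A, VPREB1, NLRP12 and SORCS3 and the low library of PRSS2 carry different tags in the 2 horns.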

How the data were processed

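The authors deposited raw read counts per gene, made with featureCounts after HISAT2 alignment to UMD3.1, with FastQC checks, per the submitters' processing notes; versions are not given in the sources used here. Libraries were stranded TruSeq mRNA from Trizol-extracted, DNase-treated RNA of endometrial homogenate, per the labels' protocols. CPM used column totals. Samples were grouped by day and horn in their labels. Ipsilateral counts were fitted in edgeR 4.0.16 (TMM, filterByExpr, 4 day groups of 5, quasi-likelihood test, Benjamini-Hochberg adjusted p below 0.05 across 19733 genes). The fit was tested on simulated data. Alternatives were DESeq2 1.42.0, RLE factors, no filter, all 40 libraries, only the 10 libraries compared, log2 depth as a covariate, and each library left out. No 2 columns were identical (0 pairs). Replicates within a horn were treated as separate heifers; the fit of all 40 libraries does not model that both horns share heifers. All 42 members passed the filter and may be named; they and the lists were chosen with earlier results of these data known. From lists holding a member, up to 3 further genes that passed with the largest day 13 minus day 7 change are named. Sequences were not used here.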

Additional observations from a re-analysis of the deposited data

Results flagged for a closer look

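In 37 of the 336 groups of 5 libraries (42 genes in 8 groups), 1 library lay apart from the other 4 by a gap of more than 0.71 of the group's range. A nominal rate of 1 in 20 gives 16.8. That rate holds for independent groups of normally distributed values. Here members were chosen on contralateral means and both horns come from the same heifers, so 16.8 is not a chance expectation. The library was the highest in 35 and the lowest in 2, and 23 genes are involved. On ipsilateral day 13, 10 groups were concerned. The high libraries were 4-1314 for COL22A1 (328 CPM, the others 77.1 to 107), FAM135B (38.6 CPM) and LOC782402 (18.8 CPM), 5-140 for LOC100848025 (252 CPM), 5-167 for SCN3A (32.9 CPM), and 6-203 for LOC614522 (8.18 CPM), NLRP12 (11.9 CPM) and STYK1-2 (39.3 CPM). The low library was 5-167 for PRSS2 (0.256 CPM, the others 24.3 to 29.2) and SLPI (0.0733 CPM, the others 2.67 to 3.13).

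On contralateral day 13 the high libraries were 4-1314 for LOC100848209 (116 CPM), LOC782402 (17.2 CPM) and NMB (52.0 CPM), 5-140 for SCN3A (23.98 CPM) and 5-167 for NLRP12 (12.2 CPM).

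On day 5 the ipsilateral library 8-1350 held 496 CPM of NMB and 4-184 held 3.00 CPM of LY6G6C. In the contralateral horn of that day, 7-300 was high for NMB (25.1 CPM) and HIST1H1C (6.81 CPM), 3-175 for LOC522479 (7.60 CPM) and LOC101906554 (2.08 CPM), 4-184 for BCL2L14 (2.74 CPM) and 8-1350 for HAVCR1 (0.465 CPM).

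On day 7 ipsilateral library 5-117 was high for RAD21L1 (17.4 CPM), LOC100848209 (8.33 CPM) and SCN3A (4.87 CPM), 6-338 for LOC101903895 (4.31 CPM) and SORCS3 (3.04 CPM), and 2-1337 for NLRP12 (4.64 CPM) and LOC101905331 (3.93 CPM). The contralateral ones were 2-1337 for LOC101905331 (5.41 CPM) and 4-064 for LOC101903895 (3.43 CPM).

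On day 16 ipsilateral library 3-155 was high for LOC101903895 (5.54 CPM) and 7-107 for LOC101904859 (2.69 CPM), and contralateral 5-137 for LOC101903895 (4.89 CPM) and BCL2L14 (2.62 CPM) and 7-107 for SCN3A (3.42 CPM).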

How the results depend on the processing

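Counts of members that rose from day 7 or from day 5 to day 13 stayed within 1.5 times of 26 and 35 under every alternative run, from 20 to 29 and from 31 to 37. Of the 26 calls 18 were kept in every alternative, and of the 35, 28. The 2 members called between days 13 and 16 became 7 with all 40 libraries, 13 with DESeq2 and 1 with depth as a covariate, and 0 to 2 with 1 library left out. All genes higher on day 13 than on day 16 numbered 50, and 116, 199 and 32 under those 3 settings, 10 with only the 10 libraries compared, and 7 (without day 16 library 3-155) to 110 (without 5-137) with 1 library left out. The 1 member lower on day 16 than on day 7 became 0 without 6-338 or 7-107, and without 2-068 it was 1 but not FAM135B. The cause was not tested. The fit with all 40 libraries counts both horns of a heifer as separate samples, so its p-values may be too small. The rule gave 21 members at a ratio of 0.4, 96 at 0.6, 67 at a minimum of 1 CPM and 17 at 10 CPM. In the ipsilateral horn it was met by 10 members at 0.4. Directions turned with 1 library left out for LOC782402 (-0.36 to 2.60 against day 7, -0.35 to 2.60 against day 16 and -0.78 to 2.18 against day 5, each lowest without 4-1314), for NMB against day 5 (-2.40 to 1.20, highest without 8-1350) and for SORCS3 against day 5 (-0.46 without 8-275, up to 0.95). No paired analysis was possible because each heifer tag occurs on 1 day only. The member with the fewest reads had 353 over the 5 ipsilateral libraries of day 13.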
